A study of Mus musculus with 6 samples.

Results

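Smooth muscle contractile genes were examined in the intestine of newborn mice of the inbred C57BL/6 strain, with NECA or DMSO given for 5 days. The group is a named list of 31 genes that encode the filaments, motor, anchors, channels and master coactivator of smooth muscle. All 31 were found by gene name among the 54532 genes of the tables, each in 1 row, and all 31 passed the filter on low counts. NECA (N-ethylcarboxamidoadenosine) acts as an agonist at several adenosine receptors, and the solvent DMSO served as control. Each group had 3 libraries of total RNA from whole tissue, and both groups shared strain, age and treatment time. The labels do not give the segment of bowel, whether the animals or the isolated tissue were treated, or whether the libraries came from separate animals, so p-values measure the spread between these libraries, which may be in part technical.

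The muscle coat of the bowel is an inner circular and an outer longitudinal sheet of smooth muscle, with enteric ganglia and interstitial cells of Cajal between them, and a thinner sheet runs below the mucosa. Contraction starts when calcium entering through L-type channels binds calmodulin and activates myosin light chain kinase, which phosphorylates the regulatory light chain and lets smooth muscle myosin pull on actin. A phosphatase reverses this step. Many contractile genes are known targets of serum response factor (SRF), which works in smooth muscle with the coactivator myocardin and binds a sequence called the CArG box. In bulk tissue, fewer muscle cells and less RNA per muscle cell cannot be told apart.

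Total counts ran from 15531996 to 18065078 per library, and 21564 to 21946 genes had at least 1 count. DMSO replicate 2 and NECA replicate 2 stood apart in different ways. NECA replicate 2 had the lowest correlations with other libraries (0.977 to 0.987 across genes on a log2 scale, against 0.9902 to 0.997 among the other 5), and its 4 genes of the ileum summed to 2097 CPM (counts scaled to a common library size) against 7.83 to 211 elsewhere. Its 5 genes of the proximal bowel summed to 140 CPM against 2219 to 2824 elsewhere. The other 5 libraries also differed among themselves in the ileum genes. These summed to 8.26 and 7.83 CPM in DMSO replicates 1 and 2 and 35.3 CPM in NECA replicate 1. They summed to 181 CPM in DMSO replicate 3 and 211 CPM in NECA replicate 3. The relation of bowel position to the muscle genes was not tested. DMSO replicate 2 had 8.39% of its counts on mitochondrial transcripts, against 1.31% to 4.49% in the others. Epithelial markers were abundant in every library, with Epcam, an epithelial adhesion protein, at 1359 to 1717 CPM.

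CArG boxes and similar sequences near the start sites are shown first, as the letters SRF is known to bind, and their relation to the levels was not tested. RefSeq promoter windows (GRCm38.p6, 250 bases before to 50 after a start site) were at hand for 26 of the 31 genes and were searched for the CArG box, which is CC, then 6 letters that are each A or T, then GG. The pattern reads the same on both strands. Actg2, Tagln, Myh11, Nexn and Myocd had no window and were not searched. A CArG box was found in windows of 2 genes, Ldb3 and Myl9 (7.69%), against 1.81% of the 27025 genes with a window. With 1 of the 6 central letters allowed to be G or C, called CArG-like here and counted together with the exact boxes, 8 of the 26 genes had a match (30.8%), against 11.3% of all genes. The matches are descriptions of the letters and not evidence of binding. The 11 distinct matches follow 5′ to 3′ on the gene's strand, with the match in capitals and 10 bases on each side:
Ldb3: gggttacagtCCATTTATGGgcgcagcaag
Myl9, exact: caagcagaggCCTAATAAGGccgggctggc
Myl9, CArG-like: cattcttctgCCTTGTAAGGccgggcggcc
Acta2, far: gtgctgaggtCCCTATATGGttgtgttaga
Acta2, near: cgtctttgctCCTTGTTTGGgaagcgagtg
Jph2: gatccaatggCCTTGTTAGGgcaacactga
Cacna1c, upstream start: cagagaagaaCCAAGAAAGGaggagtgctt
Cacna1c, downstream start: tgagatagctCCTTCATTGGaaaccgcacc
Pcp4: ggtatagaatCCTTTTAGGGtggatgcttt
Pdlim3: tctctcacttCCAAAGTTGGagctctcctt
Synm: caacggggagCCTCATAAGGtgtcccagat

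The exact box of Myl9 began at -161 from its start site (stretch at chr2:156775293-156775322, plus strand) and its CArG-like match at -99 (chr2:156775355-156775384). That of Ldb3 began at -35 from one annotated start and -109 from another (chr14:34588697-34588726, minus strand). The Acta2 pair began at -84 and -34 (chr19:34255438-34255467 and chr19:34255388-34255417, minus strand). These and the Synm match (chr7:67759962-67759991, minus strand, -239) lay in annotated exons, and the other 8 did not. The match of Pcp4 began at -107 (chr16:96467489-96467518, plus strand), that of Pdlim3 at -100 (chr8:45885377-45885406, plus strand), and that of Jph2 at -73 or -93 from its 2 starts (chr2:163398047-163398076, minus strand). The Cacna1c matches lay at chr6:119196420-119196449 and chr6:118758039-118758068 on the minus strand, beginning at -30 and -84 from 2 different starts.

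Longer upstream windows are given for the genes at the 2 ends of the range of variation described below, Pcp4 (250 bases, chr16:96467356-96467605, plus strand) and Ldb3 (249 bases, chr14:34588683-34588931, minus strand), with the match in capitals:
Pcp4: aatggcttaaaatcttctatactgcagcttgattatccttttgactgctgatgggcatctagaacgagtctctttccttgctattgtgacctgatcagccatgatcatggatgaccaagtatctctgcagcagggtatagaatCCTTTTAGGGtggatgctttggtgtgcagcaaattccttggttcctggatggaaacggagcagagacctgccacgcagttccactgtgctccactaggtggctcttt
Ldb3: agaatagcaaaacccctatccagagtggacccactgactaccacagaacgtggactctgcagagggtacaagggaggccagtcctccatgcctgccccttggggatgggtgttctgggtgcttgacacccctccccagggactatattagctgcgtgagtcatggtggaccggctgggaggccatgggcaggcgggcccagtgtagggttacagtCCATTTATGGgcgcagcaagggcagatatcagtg
Ldb3, with an exact box, had the smallest excess in DMSO replicate 2, and Pcp4, with a CArG-like match, the largest. These 2 genes were chosen by that excess, so they show no relation between match and level. Myl9, the other gene with an exact box, was there at 2.16 times the median of the other 5 libraries, where the median member was at 2.10.

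Levels between genes were compared per length, as the authors' FPKM (fragments scaled by gene length and library size). The order was led in every library by the actin Acta2, the light chain Myl9 and the enteric actin Actg2, with mean FPKM of 592, 468 and 377 over the 6 libraries. The 3 ranked 58, 79 and 94 among all genes of the tables by mean FPKM. Csrp1, Tpm2, Tpm1 and Myh11 followed at 177, 133, 132 and 128 FPKM, then Des, Mylk, Flna and Cnn1 at 87.9, 79.5, 76.2 and 62.4. Tpm2, Tpm1 and Myh11 changed places between libraries. Of them, Tpm1 was highest in every library except DMSO replicate 2, where Tpm2 was highest, and these differences were not tested. Another 11 genes lay between 8.24 and 22.5 FPKM and 1, Lmod1, at 7.77. The 8 lowest ran from Pcp4 at 5.03 through Mrvi1, Nexn, Tagln, Myocd, Kcnmb1 and Pln to the channel gene Cacna1c at 0.865.

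**Figure D1:**
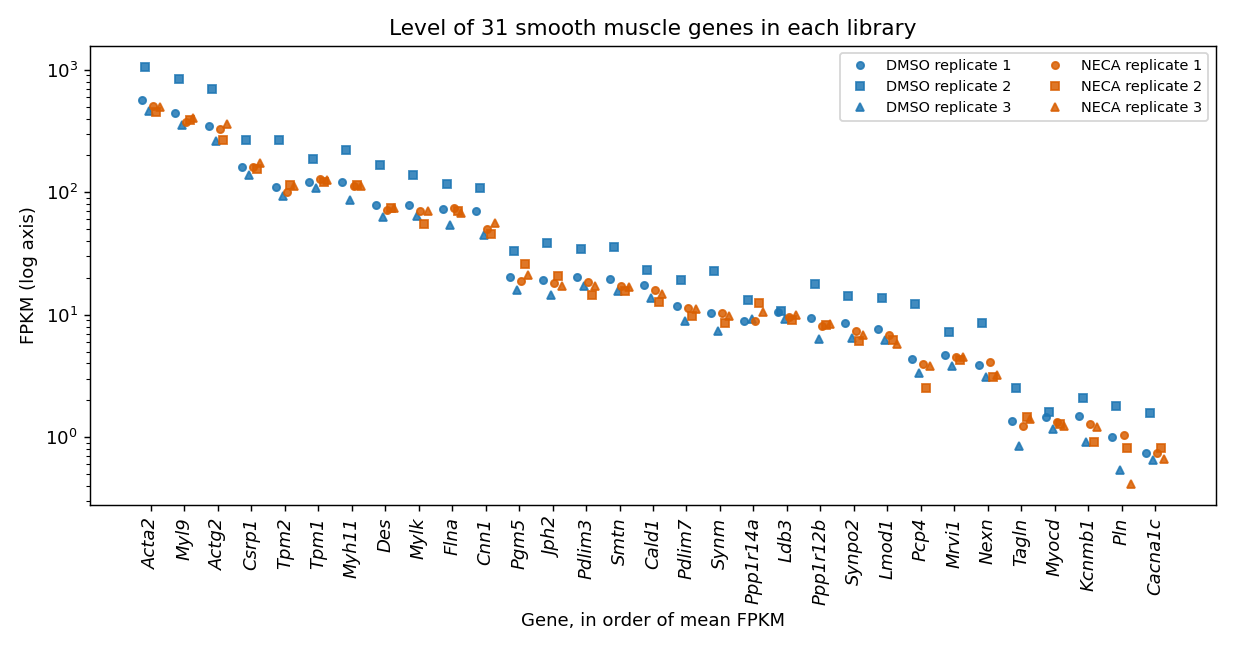
FPKM of each of the 31 genes (log axis) in each of the 6 libraries, 1 point per library, in order of mean FPKM. Acta2, Myl9 and Actg2 are the 3 highest in every library, and the square of DMSO replicate 2 lies above the other 5 points in each gene.

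The most general feature of the 31 genes was their level in DMSO replicate 2. On the scale of TMM-normalised CPM, each of the 31 was highest in that library, where 26.45% of the 15847 genes tested were. The genes summed to 7677, 13949 and 6065 CPM in the DMSO libraries and to 7029, 6697 and 7167 CPM in the NECA libraries, or 0.595% to 1.34% of all counts. The 3 NECA libraries lay between DMSO replicates 1 and 3, with a coefficient of variation (SD over mean) of 3.47% against 45.1% in DMSO. NECA replicate 2, apart in the ileal genes, was therefore not apart in the summed muscle genes. The ratio of DMSO replicate 2 to the median of the other 5 libraries had a median of 2.10 over the 31 genes and ran from 1.14 in Ldb3 to 3.29 in Pcp4. It was at least 1.5 in 28 of them, against 14.3% of all genes tested, whose median ratio was 1.01. Ldb3, Myocd and Ppp1r14a were the 3 under that limit.

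**Figure D2:**
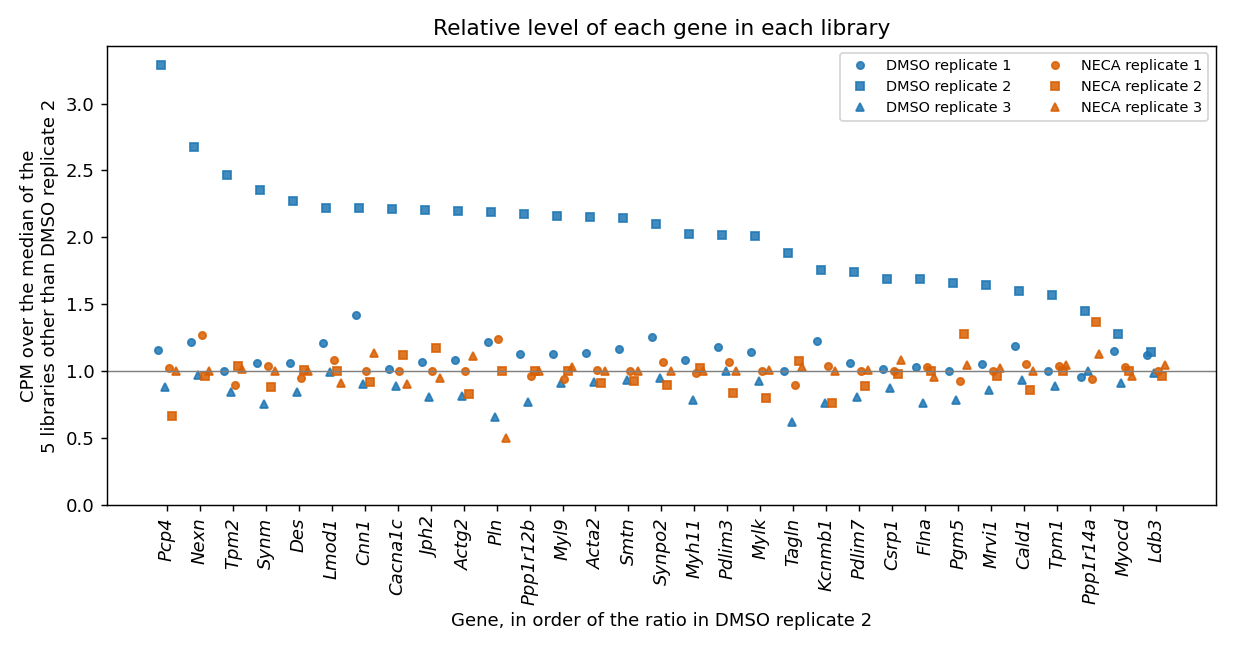
CPM of each gene in each library, divided by the median of the 5 libraries other than DMSO replicate 2 (grey line at 1), with genes in order of the ratio in DMSO replicate 2. That library runs from 3.29 in Pcp4 down to 1.14 in Ldb3, and most of the other points sit near 1.

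The spread within groups differed in the same way gene by gene. Its larger size in DMSO largely restates the high level of each gene in DMSO replicate 2 and is not a separate feature. The coefficient of variation was larger in DMSO than in NECA in 31 of 31 genes, against 43.65% of all genes tested, with a median of 44.3% in DMSO (16.2% over all genes) and 8.45% in NECA (18.9% over all genes). It was smallest in NECA for Myh11 (1.92%) and largest there for Pln (41.3%), which rests on 259 counts over the 6 libraries. Among the 5 libraries other than DMSO replicate 2, the highest value was 1.36 times the lowest in the median gene, against 1.59 over all genes tested. DMSO replicate 3 was the lowest library in 19 of the 31 genes, against 10.27% of all genes tested. NECA replicate 2 was lowest in 9 of the 31, near its share of 27.9% over all genes tested. DMSO replicate 1 was second highest in 20.

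The thin filament genes encode actins and the proteins along them. Acta2, the actin of vessels and other smooth muscle (ENSMUSG00000035783, chromosome 19, 34241090 to 34255590, GRCm38), was at 1017, 1926 and 823 CPM in DMSO and 904, 817 and 897 CPM in NECA. Actg2, the actin typical of visceral muscle (ENSMUSG00000059430, chromosome 6, 83512905 to 83536265), was at 547, 1111 and 412 CPM in DMSO and 505, 419 and 561 CPM in NECA. Both were highest in DMSO replicate 2, and the groups overlapped. The ratio of Actg2 to Acta2 on the FPKM scale stayed between 0.573 and 0.716 over the 6 libraries.

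The tropomyosins lie along actin and set access of myosin to it. Tpm1 was at 793, 1247 and 703 CPM in DMSO and 825, 794 and 828 CPM in NECA. Tpm2 was at 323, 796 and 272 CPM in DMSO and 288, 335 and 327 CPM in NECA. The excess in DMSO replicate 2 was smaller for Tpm1 (1.57) than for Tpm2 (2.47), so that the ratio of Tpm2 to Tpm1 by FPKM was 1.42 in that library and 0.778 to 0.942 in the other 5. Both tropomyosins are also made outside smooth muscle.

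Calponin (Cnn1), caldesmon (Cald1), transgelin (Tagln) and leiomodin (Lmod1) bind the actin filament, leiomodin as a nucleator of new filaments. Cnn1 was at 193, 302 and 123 CPM in DMSO and 136, 125 and 154 CPM in NECA. Lmod1 was at 30.3, 55.6 and 24.9 CPM in DMSO and 27.0, 25.02 and 22.8 CPM in NECA. In both genes DMSO replicates 1 and 2 lay above every NECA library and DMSO replicate 3 did not lie above every one of them. Cald1 ran from 153 to 286 CPM.

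Tagln was far below its partners, and was named after its value was seen. It had 299 counts in all 6 libraries and a mean of 1.48 FPKM, against 62.4 for Cnn1, although transgelin is known as an abundant smooth muscle protein. Of its 1988 exonic bases, 1349 (67.9%) lie in exons of other genes in GENCODE M21, where Pcsk7 on the opposite strand, with 5817 counts, runs across it. Pln, at 64.7%, was the only other member with more than 23.7% of its exonic bases shared in this way. The part of the overlap in these levels was not tested, and the values of Tagln and Pln are uncertain. By relative level Tagln followed the others, at 2.73, 5.15 and 1.69 CPM in DMSO and 2.46, 2.94 and 2.81 CPM in NECA.

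In the motor genes Myh11, Myl9 and Mylk, DMSO replicate 2 was highest and DMSO replicate 1 second. Myh11, the heavy chain of smooth muscle myosin (ENSMUSG00000018830, chromosome 16, 14194535 to 14291372), was at 925, 1732 and 668 CPM in DMSO and 842, 875 and 855 CPM in NECA. Myl9, the regulatory light chain (ENSMUSG00000067818, chromosome 2, 156775420 to 156781658), was at 517, 993 and 419 CPM in DMSO and 431, 459 and 473 CPM in NECA. Mylk, the light chain kinase (ENSMUSG00000022836, chromosome 16, 34745210 to 35002420), was at 898, 1585 and 729 CPM in DMSO and 788, 630.4 and 792 CPM in NECA. For all 3 genes DMSO replicates 1 and 2 lay above the 3 NECA libraries and DMSO replicate 3 lay below at least 2 of them. The FPKM ratio of Myl9 to Myh11 ran from 3.35 to 4.10.

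On the phosphatase side, Ppp1r12b, a myosin-targeting subunit, ran from 96.3 to 273 CPM, with a ratio of 2.18 in DMSO replicate 2. Ppp1r14a, the phosphatase inhibitor CPI-17, was at 12.2, 18.5 and 12.8 CPM in DMSO and 12.0, 17.4 and 14.4 CPM in NECA. It was the single gene of the 31 with a fitted fold above 0, and its level in NECA replicate 2 was close to that in DMSO replicate 2.

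Genes of the cytoskeletal anchors formed the largest role, with 11 members. Desmin (Des, ENSMUSG00000026208, chromosome 1, 75360329 to 75368579), the intermediate filament protein of muscle, was at 298, 636 and 236 CPM in DMSO and 266, 283 and 280.3 CPM in NECA. Flna, an actin crosslinker made in many cell types, was at 694, 1131 and 509.8 CPM in DMSO and 691, 671 and 643 CPM in NECA. Csrp1, a LIM-domain protein of actin bundles, was at 321, 532 and 276 CPM in DMSO and 315, 308 and 341 CPM in NECA. The excess in DMSO replicate 2 was 2.27 for Des and 1.68 and 1.69 for the latter 2. In each of the 3 genes the NECA libraries lay within the range of the DMSO libraries.

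Synpo2, an actin-bundling protein, was at 113, 189.6 and 85.3 CPM in DMSO and 96.4, 80.9 and 90.2 CPM in NECA. Pdlim3, which binds alpha-actinin, was at 105, 179.8 and 89.2 CPM in DMSO and 95.4, 74.8 and 89.0 CPM in NECA. The groups overlapped in both through DMSO replicate 3. The intermediate filament protein synemin (Synm), smoothelin (Smtn), nexilin (Nexn), Pgm5, a protein of adhesion plaques, and Pdlim7 had ratios in DMSO replicate 2 of 2.35, 2.15, 2.68, 1.66 and 1.74.

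Ldb3, a PDZ and LIM protein known from striated Z-discs, had the smallest excess in DMSO replicate 2 and was named after its values were seen. It was at 65.2, 66.4 and 57.1 CPM in DMSO and 58.1, 56.1 and 60.7 CPM in NECA (ENSMUSG00000021798, chromosome 14, 34526603 to 34588682). Its FPKM ratio to Myh11 was 0.0477 in DMSO replicate 2 and 0.0799 to 0.106 in the other 5 libraries. It had 6156 counts in all, so low depth does not limit that ratio.

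The genes of calcium handling and excitation were low per length except Jph2, a junctophilin that joins the surface membrane to the calcium store (21.4 FPKM). They include Cacna1c, the pore of the L-type calcium channel, Kcnmb1, the beta subunit of the large-conductance potassium channel, Pln, the inhibitor of the store's calcium pump, Mrvi1, a target of cGMP-dependent kinase at the store, and Pcp4, a calmodulin regulator. Cacna1c and Jph2 had ratios of 2.21 and 2.20 in DMSO replicate 2, near that of the filament genes, and Kcnmb1 and Mrvi1 1.75 and 1.64. Pcp4 (ENSMUSG00000090223, chromosome 16, 96467606 to 96525793) was at 4.52, 12.8 and 3.44 CPM in DMSO and 4.01, 2.59 and 3.90 CPM in NECA. Its high value in DMSO replicate 2 is the largest ratio of the list, on 510 counts over the 6 libraries. Of its transcript sequence, 17.5% of 50-base stretches also occur in Igsf5, which had 2 counts over the 6 libraries. How reads from shared stretches were counted is not stated, so the level of Pcp4 is uncertain.

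Myocd, which encodes myocardin (ENSMUSG00000020542, chromosome 11, 65176561 to 65269989), varied little. It was at 9.54, 10.6 and 7.56 CPM in DMSO and 8.53, 8.28 and 7.98 CPM in NECA, with a ratio of 1.28 in DMSO replicate 2 on 887 counts. Srf, its DNA-binding partner, was highest in NECA replicate 2, at 94.8 CPM against 52.3 to 72.6 in the other 5 libraries.

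The study's comparison of NECA with DMSO called none of the 31 genes. By the quasi-likelihood test of edgeR, adjusted over 15847 genes, 0 of the 31 passed, where 0% of all genes did (0 genes). The members' adjusted p ran from 0.738 to 0.989, 0 had an unadjusted p under 0.05 (5.48% of all genes did, 3.03% lower and 2.45% higher), and DESeq2 also called 0 of 31 (0.0333% of all genes). The groups overlapped in all 31, so that 0 were apart, against 13.7% of all genes (7.16% lower and 6.49% higher in NECA). Fitted fold changes were below 0 in 30 of the 31 and above 0 in 1, where 51% and 49% of all genes were, with a median log2 of -0.46 against -0.008 over all genes tested. The thin filament median was -0.50, the motor and its regulators -0.46, the anchors -0.50 and the calcium genes -0.43.

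Of single genes, Pcp4 had the lowest fold, with a mean of 6.94 ± 5.15 CPM in the 3 DMSO libraries and 3.50 ± 0.789 CPM in the 3 NECA libraries (SD, n = 3). The log2 fold change was -0.98 (SE 0.51, edgeR adjusted p = 0.738). Cnn1 was at 206 ± 90.2 and 139 ± 14.6 CPM (-0.57, SE 0.31). Pdlim3, with the smallest unadjusted p of the list (0.0847), was at 125 ± 48.4 and 86.4 ± 10.5 CPM (-0.53, SE 0.27). For Lmod1 and Synpo2 the folds were -0.57 (SE 0.29) and -0.54 (SE 0.28). In these 5 genes the SD in DMSO was larger than the difference between the means. Among the most abundant genes, Acta2 was at 1255 ± 589 and 872 ± 48.3 CPM (-0.53, SE 0.33), Myh11 at 1108 ± 555 and 857 ± 16.5 CPM (-0.37, SE 0.35) and Des at 390.0 ± 215 and 276 ± 9.56 CPM (-0.50, SE 0.36). Ppp1r14a, the single gene above 0, differed by 0.02 (SE 0.23).

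These folds rested on DMSO replicate 2. Without it, 15 of the 31 genes were lower and 16 higher in NECA, with a median log2 of 0.05 (0.01 over all genes tested) and a range from -0.19 in Cnn1 to 0.31 in Tagln, and 0 were called. Without that library Acta2 differed by -0.08 (SE 0.21), Myh11 by 0.11 (SE 0.23), Des by 0.05 (SE 0.18) and Pcp4 by -0.19 (SE 0.30). The mean of NECA lay between DMSO replicates 1 and 3 in 25 of the 31 genes, and every NECA value did in 11. Neither count was taken over all genes. Without NECA replicate 2 the median was -0.43, with 31 of 31 lower. Without DMSO replicate 3, the lowest library in most members, it was -0.72, with 9 of 31 members at an unadjusted p under 0.05, against 7.43% of all genes in that fit, and 0 called. Without DMSO replicate 1 it was -0.63.

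**Figure D3:**
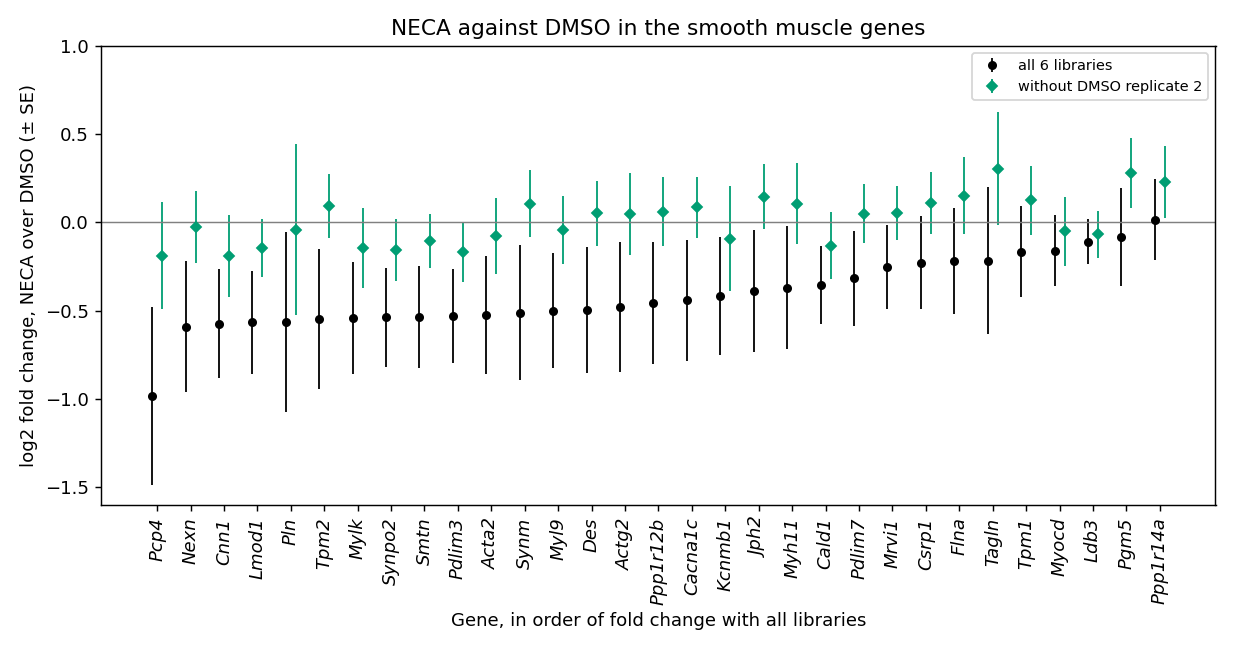
Fitted log2 fold change of each gene, NECA over DMSO, with its SE as a bar, for all 6 libraries (black circles) and without DMSO replicate 2 (green diamonds). With all libraries 30 of 31 points lie below 0, and without DMSO replicate 2 the points lie on both sides, 15 below and 16 above.

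Other genes of the same pathway were taken from 3 lists. Among SRF and 6 other transcription factors and coactivators, 0 of 7 passed in edgeR or DESeq2 (2 at an unadjusted edgeR p under 0.05), with 4 lower and 3 higher and a median of -0.07. Foxf1, a forkhead factor of gut mesenchyme, was at 78.3, 74.4 and 69.3 CPM in DMSO and 62.2, 58.3 and 61.1 CPM in NECA (log2 -0.29, SE 0.12, edgeR adjusted p = 0.738). Mef2c differed by -0.50 (SE 0.20) and Srf by 0.24 (SE 0.21), or 0.02 without NECA replicate 2. Foxf1 was the 1 gene of these 7 whose groups did not overlap, against 13.7% of all genes tested. It was named for its small p, so the gap between its groups is not separate support. DMSO replicate 2 was not apart in this gene.

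Of 17 genes of contraction signalling, 0 passed in either tool (0 at an unadjusted p under 0.05), with 12 lower and 5 higher and a median of -0.20. Without DMSO replicate 2, 7 were lower and 10 higher, with a median of 0.04. Kcnma1, the pore of the potassium channel that Kcnmb1 regulates, differed by -0.57 (SE 0.32; -0.16 without DMSO replicate 2), and Gucy1a1, a subunit of the nitric oxide receptor guanylyl cyclase, by -0.22 (SE 0.14). Atp2a2, the calcium pump that Pln inhibits, was at 548 CPM in NECA replicate 2 and 235 to 309 CPM elsewhere (0.48, SE 0.30), and differed by 0.07 without that library. DMSO replicate 2 was the highest library in 11 of these 17 genes, but their summed level there was 1.17 times the median of the other 5.

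Of 20 genes of adhesion sites, the dystrophin complex and caveolae, 19 were tested (Ilk, at 0.199 to 0.402 CPM, was not) and 0 passed in either tool (1 at an unadjusted p under 0.05), with 18 lower and 1 higher and a median of -0.18. Without DMSO replicate 2, 14 were lower and 5 higher, with a median of -0.13. Itga8, an integrin chain of smooth muscle and fibroblasts (ENSMUSG00000026768, chromosome 2, 12106632 to 12301922), was at 14.5, 13.1 and 15.3 CPM in DMSO and 7.82, 8.77 and 10.7 CPM in NECA. Its log2 fold change was -0.65 (SE 0.19, unadjusted p = 0.00965, edgeR adjusted p = 0.738). The groups did not overlap, as in 2 of the 19 genes tested here and 13.7% of all genes tested. The fold ran from -0.78 to -0.55 as each library was left out. Itga8 was named for its small p, so neither result is separate support. Sgcb, a sarcoglycan, differed by -0.46 (SE 0.21) and Cav1, the caveolar coat protein, by -0.43 (SE 0.20). Without DMSO replicate 2 these were -0.29 and -0.25.

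Markers of other cells of the bowel wall were set beside the muscle genes, as summed CPM. The 4 genes of mesothelium, which covers the outer surface, were at 73.8, 228 and 52.6 CPM in DMSO and 68.9 to 91.5 CPM in NECA, with 4 of 4 highest in DMSO replicate 2. The 4 genes of interstitial cells of Cajal were at 70.6, 118 and 59.1 CPM in DMSO and 56.9 to 71.4 CPM in NECA, again with 4 of 4 highest there. Enteric neuron genes were at 229, 370.1 and 226 CPM in DMSO and 243 to 299 CPM in NECA (9 of 11 highest in DMSO replicate 2). These 3 lists were highest in the same library as the muscle genes. So was the list of 4 B cell genes, at 48.1, 64.4 and 19.8 CPM in DMSO and 8.34 to 16.6 CPM in NECA (4 of 4 highest in DMSO replicate 2). In the B cell list DMSO replicates 1 and 3 also lay above every NECA library. The relation of these lists to the muscle genes was not tested.

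Enteric glia genes were at 42.3, 58.8 and 21.1 CPM in DMSO and 15.8 to 21.7 CPM in NECA (5 of 5 highest in DMSO replicate 2), and pericyte and vessel wall genes at 458, 587 and 383 CPM in DMSO and 285 to 412 CPM in NECA (4 of 7). The lists of the mucosa and stroma were not high there. Fibroblast genes summed to 4338, 2998 and 4250 CPM in DMSO and 3189 to 4054 CPM in NECA, epithelial genes to 7300, 6131 and 8388 CPM in DMSO and 7853 to 10998 CPM in NECA, and endothelial genes to 347, 233 and 295 CPM in DMSO and 168 to 296 CPM in NECA. In these 3 lists 0 genes were highest in DMSO replicate 2. The part of these shifts in the level of the muscle genes was not tested.

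Of 18 markers of skeletal and heart muscle, summing to 30.9 to 89.1 CPM in DMSO and 27.9 to 37.7 CPM in NECA, 6 passed the filter and 9 were highest in DMSO replicate 2. The heavy chain Myh4 had 0 counts in every library, which allows up to 0.150 to 0.201 CPM (3 counts, counting error only), and the myogenic factors Myod1 and Myog had counts in DMSO replicate 1 alone, at 0.0558 CPM each. Most of the sum came from Tnnt2, the heart troponin T, at 19.9, 58.0 and 16.5 CPM in DMSO and 14.8 to 20.8 CPM in NECA, and from Ckm, the muscle creatine kinase, at 12.1, 18.5 and 5.19 CPM in DMSO and 4.89 to 7.06 CPM in NECA. Both were highest in DMSO replicate 2. Acta1, the skeletal muscle actin, was not, at 2.68 CPM there and 2.69 CPM in NECA replicate 2, against 3.57 to 6.27 CPM elsewhere. Tnnt2 and Ckm were above several of the 31 genes, such as Tagln and Pln, in CPM.

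**Figure D4:**
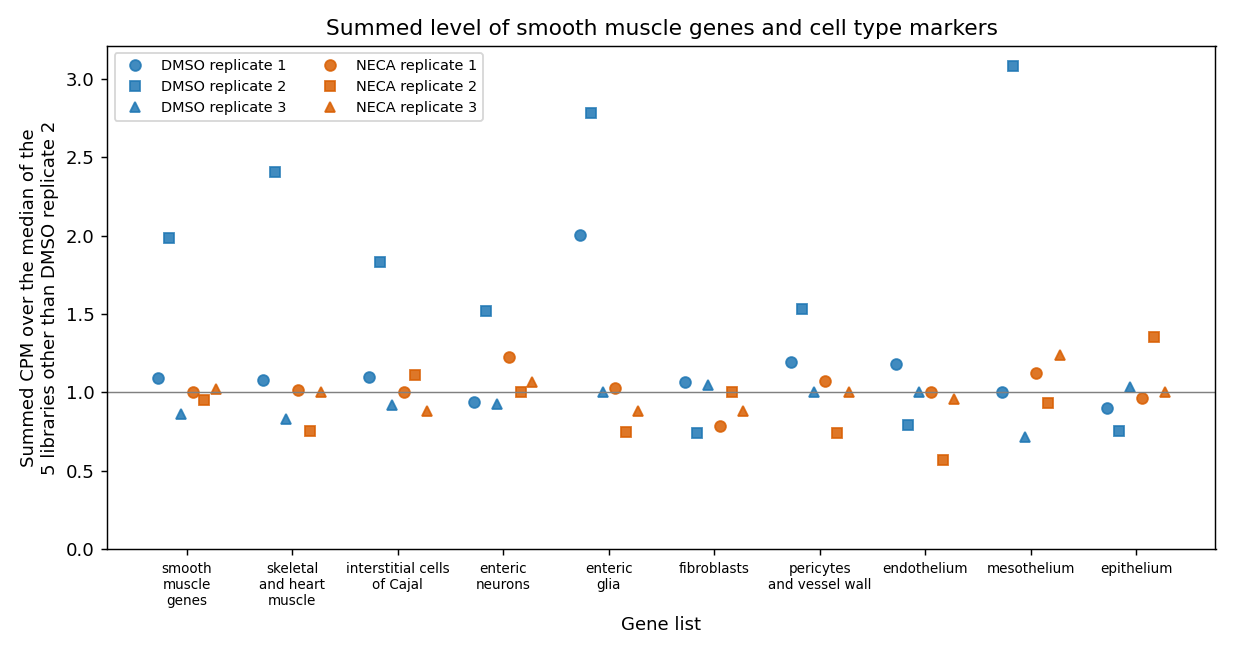
Summed CPM of the 31 smooth muscle genes and of 9 marker lists in each library, divided by the median of the 5 libraries other than DMSO replicate 2 (grey line at 1). DMSO replicate 2 is at 3.08 for mesothelium, 2.78 for enteric glia and 1.98 for smooth muscle, and below 1 for fibroblasts, endothelium and epithelium.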

How the data were processed

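For each of 6 libraries of newborn mouse intestine (3 DMSO, 3 NECA) the authors deposited a whole-number count and an FPKM value per gene, per the file headers. HISAT, StringTie, edgeR and the builds mm10 and GRCm38 are named in the submitters' processing notes. The sources used here give no versions, parameters or strand setting, and do not say how multi-mapping reads were counted. Per the labels' protocols, cDNA was amplified by PCR without mention of molecular identifiers, so reads are not independent molecules. The deposited FPKM equalled the count over 1 value per gene and 1 factor per library (largest relative deviation 1.3e-07). These factors differed from edgeR's effective library sizes by at most 1.68%.

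Counts were tested with edgeR 4.0.16 in R 4.3.3 (filterByExpr, minimum count 10 and minimum total 15, TMM factors, glmQLFit and glmQLFTest, no covariates, two-sided, Benjamini-Hochberg, threshold 0.05), which kept 15847 genes. CPM are TMM-normalised. FPKM was used to compare levels between genes and was not tested. SE is the fold change over the root of its F statistic. The scripts were checked on simulated data. Alternatives were DESeq2 1.42.0, its size factors in edgeR, no filter or a filter of 5 CPM in 3 libraries, each library left out, a replicate block, and mitochondrial, haemoglobin and ribosomal protein genes left out. A fit without both replicates numbered 2 was added after seeing the data. The members and gene lists were chosen with earlier results of these data known. Values per library are given for the 10 members highest in FPKM, the 5 of smallest p in each direction (1 had a fold above 0), members with groups apart (0), Myocd and Pcp4. In the 3 pathway lists the 3 genes of smallest p are named. Coordinates are from GENCODE M21 (GRCm38), where 54409 identifiers (99.8%) were found.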

Additional observations from a re-analysis of the deposited data

How the results depend on the processing

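No member was called (0 of 31) under any alternative, and the median log2 fold change stayed below 0 except without DMSO replicate 2 (0.05) and without both replicates 2 (0.04). It was -0.34 with a replicate block, again with 0 genes and 0 members called. Same-numbered libraries did not deviate together (correlations of 0.0087, -0.19 and -0.02 across genes), and not every library correlated best with its own number, so the numbers were not treated as pairs. Over all genes, edgeR called 0, 2 without the filter on low counts, and DESeq2 9. Ppp1r14a differed by -0.0065 with the stricter filter. As each library was left out, log2 folds ran from -0.74 to 0.046 for Actg2, -0.32 to 0.12 for Tpm1, -0.82 to 0.093 for Tpm2, -0.52 to 0.31 for Tagln, -0.63 to 0.11 for Myh11, -0.74 to 0.061 for Ppp1r12b, -0.13 to 0.23 for Ppp1r14a, -0.75 to 0.051 for Des, -0.81 to 0.105 for Synm, -0.45 to 0.15 for Flna, -0.405 to 0.11 for Csrp1, -0.29 to 0.28 for Pgm5, -0.53 to 0.049 for Pdlim7, -0.67 to 0.085 for Cacna1c, -0.65 to 0.15 for Jph2 and -0.44 to 0.05 for Mrvi1. Without both replicates 2 the fold was 0.155 for Actg2, 0.146 for Tpm1, 0.053 for Tpm2, 0.25 for Tagln, 0.094 for Myh11, 0.055 for Ppp1r12b, 0.035 for Des, 0.17 for Synm, 0.15 for Flna, 0.14 for Csrp1, 0.048 for Nexn, 0.15 for Pgm5, 0.11 for Pdlim7, 0.0058 for Cacna1c, 0.038 for Kcnmb1, 0.056 for Jph2, 0.078 for Mrvi1 and -0.0053 for Atp2a2. Sign changes of members occurred in fits without DMSO replicate 2, apart from Ppp1r14a and from Pgm5 without NECA replicate 1 (0.021). The 10 members highest by FPKM were the 10 highest by CPM. Depth limits Pln, Tagln, Pcp4, Kcnmb1 and Myocd, with 259 to 887 counts each over 6 libraries.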

Other observations

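Receptors and stores of smooth muscle that were not on the list of 31, and were picked after their values were seen, included genes that were likewise highest in DMSO replicate 2. Chrm2, a muscarinic receptor that answers acetylcholine in bowel muscle, was at 29.2, 73.8 and 24.1 CPM in DMSO and 34.5, 23.2 and 28.2 CPM in NECA. Ryr2, a calcium release channel, was at 5.80, 14.3 and 5.38 CPM in DMSO and 6.40, 5.63 and 5.74 CPM in NECA. Both came from the list of contraction signalling, where 11 of 17 genes were highest in DMSO replicate 2. Others of that list were not. Itpr1, also a calcium release channel, was highest in NECA replicate 1, at 100 CPM against 32.5 to 68.4 CPM elsewhere. Atp2a2, the store's calcium pump, was highest in NECA replicate 2. The small heat shock protein Cryab was at 17.4, 34.2 and 13.9 CPM in DMSO and 16.8, 13.4 and 12.8 CPM in NECA. Rhoa, which is made in most cell types, was lowest in DMSO replicate 2, at 219 CPM against 286 to 316 CPM in the other 5 libraries.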
